A study of Mus musculus with 4 samples.

Results

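A set of 10 genes whose proteins coat lipid droplets or release the fat stored in them were followed in mouse liver RNA, out of 27179 genes counted. They were chosen by symbol and matched to Entrez identifiers, and all 10 were found. They are the perilipins Plin2, Plin3, Plin4 and Plin5, the CIDE proteins Cidec and Cideb, the lipase Pnpla2 with its co-activator Abhd5 and its inhibitor G0s2, and the droplet enzyme Hsd17b13. The study asked how overnight fasting changes the liver before paracetamol (APAP) is given, and bulk RNA was sequenced from livers of wild-type C57BL/6J mice, labelled male and with no age stated. The fasted mice (2 libraries) had no food overnight but free water, and the non-fasted mice (2 libraries) ate and drank freely. No mouse was genetically modified and the labels name no drug for either group, and whether a library came from 1 mouse or a pool is not stated.

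A lipid droplet is a core of triglyceride and sterol ester inside a single layer of phospholipid. Perilipins on its surface control how lipases reach the core, and CIDE proteins pass lipid from one droplet to another. Lipolysis starts with PNPLA2, also called ATGL, which ABHD5 activates and G0S2 blocks. During a fast, fatty acids from adipose tissue reach the liver, are stored in part in droplets and are released again for oxidation, and PPARα, a nuclear receptor that fatty acids activate, is known to induce several droplet proteins in hepatocytes.

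Before the results, 3 facts of the libraries matter for all of them. Total counts were 13528015 to 13541405 in the fasted and 36943535 to 36975921 in the non-fasted libraries. The 12 listed markers of placental trophoblast summed to 6 and 3 counts in fasted livers, where 8 of the 12 were at 0 in both libraries, but to 2105149 and 2123034 in non-fasted livers. Of these 12 markers 11 were tested and all 11 were lower in the fasted libraries. Xist, which is transcribed from the inactive X chromosome of females, had 2 and 1 counts in fasted but 25772 and 26316 in non-fasted livers, against the male label. One label field also reads fasted for all 4 libraries, and the groups here follow the sample titles. The non-fasted libraries therefore went against their labels in tissue and sex, and since both did so, no comparison without them can be made. The 14 hepatocyte markers, by contrast, summed to 1812480 and 1813138 raw counts in fasted livers, against 2034907 and 2021828 for the deeper non-fasted libraries. These markers thus took a larger share of each fasted library, 13.38% and 13.4%, than of each non-fasted one, 5.50% and 5.47%. The 6 stellate cell markers summed to 1515 to 1516 counts in fasted against 44264 to 44459 in non-fasted livers. The 7 macrophage and Kupffer cell markers summed to 4464 to 4591 against 37891 to 37955, and the 6 endothelial markers to 2786 to 2856 against 21460 to 21616. The 6 erythroid markers summed to 2582 to 2585 against 12365 to 13227. Single genes weighed heavily in these sums. In non-fasted livers Des gave 37279 and 37120 of the stellate, and Cdh5 11446 and 11470 of the endothelial counts. Csf1r (24951 and 24953) and Cd68 (9701 and 9883) gave most of the macrophage counts there. Some others had as many or more raw counts in fasted livers, such as Colec11 (306 and 315 against 269 and 310), Clec4f (1162 and 1149 against 1129 and 1132) and Clec4g (824 and 791 against 688 and 657). By the test and median-of-ratios scaling described next, 4 of the 6 stellate, 2 of the 7 macrophage, 4 of the 6 endothelial and 4 of the 5 erythroid markers tested were lower in fasted livers, and the others were higher. On that scale 45.3% of all genes tested were lower and 37.3% higher. By hepatocyte markers 5 of the 6 stellate, 2 of the 7 macrophage, 5 of the 6 endothelial and 5 of the 5 erythroid markers were lower, and 1 macrophage marker, Adgre1, did not pass the test. There 91.2% of all genes tested were lower and 4.23% higher, so most of these counts are near that share. The part that RNA of another tissue had in the results was not tested, and in bulk RNA fewer hepatocytes and less RNA per hepatocyte cannot be told apart.

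For this reason each difference is given on 2 scales. Median-of-ratios scaling sets the median gene equal between libraries. Hepatocyte-marker scaling sets the geometric mean of the 14 hepatocyte markers equal, and lowers the log2 fold change by 1.82 in each of the 9 lipid droplet genes tested and in the median gene, but by less in some genes of few or no counts in a group. The median log2 fold change of all 15470 genes tested was -0.13 on the former scale and -1.95 on the latter, and the 14 markers themselves lay between 1.61 and 2.27 on the former and between -0.21 and 0.45 on the latter. A gene was called higher or lower when edgeR's quasi-likelihood test gave an adjusted p of at most 0.05. These p-values and the standard errors cover the spread among the libraries of a group alone. That spread may be technical, so they are not a measure of variation among mice.

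Of the 10 genes, 9 passed the filter on low counts. By median of ratios, 7 of these 9 were higher in fasted livers and 2 were lower, where 37.3% of all genes tested were called higher and 45.3% lower. By hepatocyte markers, 5 were higher and 4 lower, where 4.23% of all genes were called higher and 91.2% lower. Scaled by total counts, 7 of the 9 were higher and 2 lower, against 23.0% and 62.9% of all genes. The 5 that were higher on every scale were Plin2, Plin4, Plin5, Cidec and Hsd17b13, and the 2 that were lower on every scale were Plin3 and Abhd5. Cideb and Pnpla2 were higher by median of ratios and by total counts, and lower by hepatocyte markers. The median log2 fold change of the 9 genes was 2.22 on the scale of median of ratios and 0.40 on that of hepatocyte markers. Both medians lay inside the ranges of the 14 hepatocyte markers, which were 1.61 to 2.27 and -0.21 to 0.45. The tenth gene, G0s2, had too few counts to be tested.

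**Figure D1:**
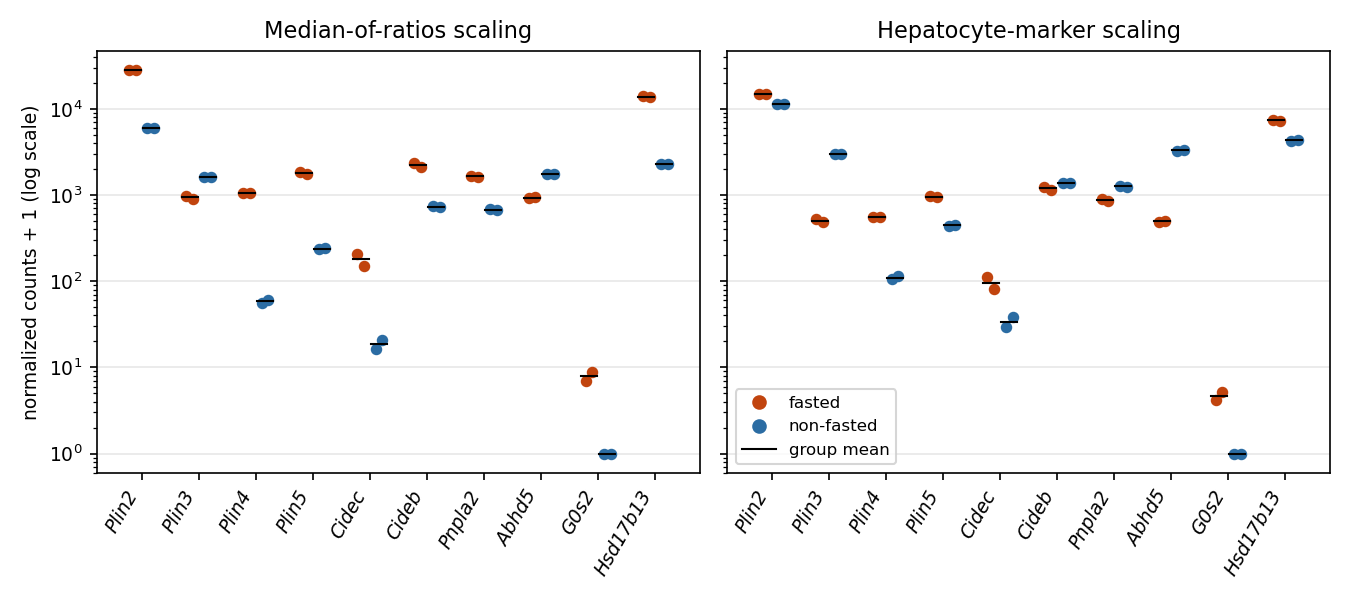
Normalized counts plus 1, on a log scale, of the 10 lipid droplet genes in each library, after median-of-ratios scaling (left) and after hepatocyte-marker scaling (right). Points are libraries, red for fasted and blue for non-fasted, and black bars are group means. Cideb and Pnpla2 have the fasted points above the non-fasted ones on the left and below them on the right, and the other genes keep their order.

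Plin2 (Entrez gene 11520) encodes the main perilipin of hepatocyte droplets, which shields stored triglyceride from lipases. It had 28241 and 27991 normalized counts in fasted livers, against 6002 and 6063 in non-fasted livers. The fasted libraries were both higher, and the groups did not overlap. The log2 fold change was 2.22 (standard error 0.014, adjusted p = 7.3e-16 by edgeR), a 4.66-fold difference. By hepatocyte markers it was 0.40 (standard error 0.015, adjusted p = 2.0e-17 by edgeR), or 1.32-fold, inside the range of the hepatocyte markers themselves. Raw counts of Plin2 were 14376 and 14195 in fasted against 11818 and 11928 in the non-fasted libraries.

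Plin5 (Entrez gene 66968) belongs to tissues that burn fat, where its protein ties droplets to mitochondria and holds ABHD5 and PNPLA2 at the droplet. It had 1823 and 1763 normalized counts in fasted and 235 and 240 in non-fasted livers. Both fasted libraries lay above both non-fasted ones. The log2 fold change was 2.91 (standard error 0.051, adjusted p = 1.6e-12 by edgeR), and became 1.09 (standard error 0.056, adjusted p = 4.6e-15) by hepatocyte markers, above the range of those markers.

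Plin4 (Entrez gene 57435), whose protein covers small droplets and is best known from adipose tissue and muscle, rose most of the 9 genes. Its normalized counts were 1049 and 1051 in fasted and 55.4 and 59.98 in non-fasted livers. This was an 18.2-fold difference with no overlap, with its log2 fold change at 4.18 (standard error 0.079, adjusted p = 3.1e-12 by edgeR), and 23rd from the top among the 15470 genes tested. By hepatocyte markers the log2 fold change was 2.36 (standard error 0.090, adjusted p = 1.5e-17 by edgeR). Raw counts were 534 and 533 in fasted against 109 and 118 in the deeper non-fasted libraries, so Plin4 was higher even before any scaling. The Plin4 gene overlaps Hdgfl2 in the annotation, and how reads in the overlap were assigned is not given in the sources used here. Hdgfl2 itself had 422 and 413 raw counts in fasted and 1833 and 1854 in non-fasted libraries.

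Plin3 (Entrez gene 66905), a perilipin made in nearly every tissue that moves from the cytosol to forming droplets, went the other way. It had 982 and 909 normalized counts in fasted and 1611 and 1604 in non-fasted livers. The fasted libraries were both lower, with a log2 fold change at -0.77 (standard error 0.044, adjusted p = 4.1e-08 by edgeR). By hepatocyte markers the log2 fold change was -2.59 (standard error 0.042, adjusted p = 5.2e-25), a 6.00-fold difference. The trophoblast markers moved the same way, with 3 to 6 summed counts in fasted and 2105149 to 2123034 in non-fasted libraries, and their part in the fall of Plin3 was not tested.

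Plin4 and Cidec are also genes of fat cells, and 7 adipocyte markers were listed beside them. Of these, Lep was at 0 in every library, and Plin1, the perilipin of fat cells, had 0 counts in both fasted libraries and 5 and 0 in the non-fasted ones. Adipoq had 0 in both fasted libraries and 4 and 3 in the non-fasted ones, Retn had 0 in both against 6 and 2, and Cidea, the CIDE protein of brown fat, had 4 and 2 in fasted and 3 and 3 in non-fasted libraries. Cfd had 8 and 10 counts in fasted and 8 and 7 in non-fasted libraries, at a log2 fold change of 2.19 by median of ratios (adjusted p = 5.0e-04 by edgeR) and 0.39 by hepatocyte markers (adjusted p = 0.439). Fabp4 had 81 counts in each fasted library and 12585 and 12952 in the non-fasted ones, at -5.35 and -7.17, and the 7 markers summed to 93 counts in each fasted library and to 12611 and 12967 in the non-fasted ones. The part of adipocyte RNA in the values of Plin4 and Cidec was not tested.

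**Figure D2:**
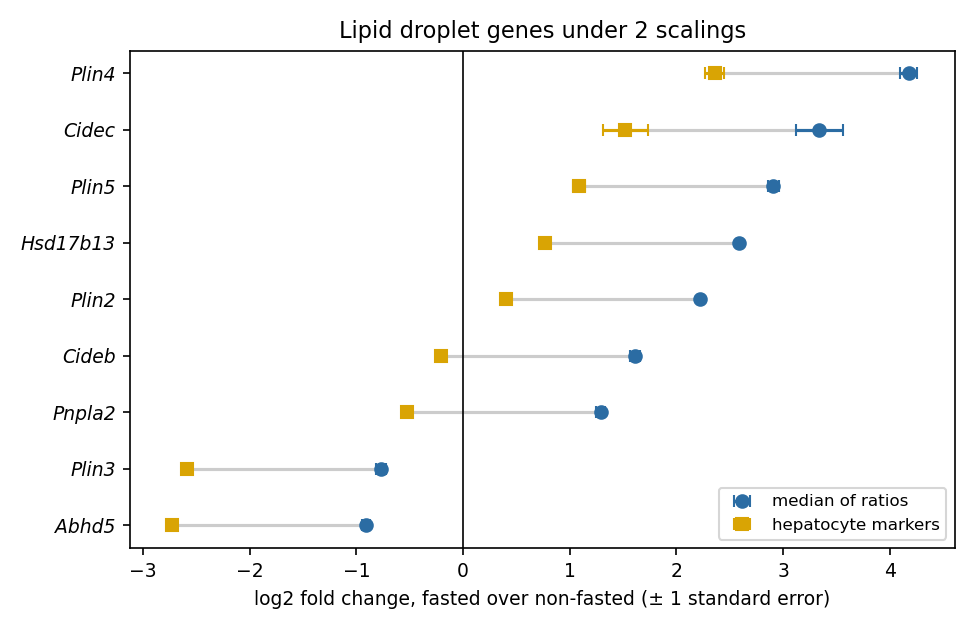
Difference between fasted and non-fasted livers, as log2 fold change, of the 9 genes tested, by median of ratios (blue circles) and by hepatocyte markers (yellow squares). Bars are 1 standard error from edgeR's quasi-likelihood fit with 2 libraries per group. Plin4, Cidec, Plin5, Hsd17b13 and Plin2 lie above 0 on both scales, Plin3 and Abhd5 below 0 on both, and Pnpla2 and Cideb change sides.

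The make-up of the perilipin coat at the RNA level does not depend on scaling between libraries, since it is a share within each one. It does depend on the mix of tissues in a library. In the non-fasted libraries the trophoblast markers took 5.69% and 5.75% of all counts, and the hepatocyte markers 5.50% and 5.47%. The part of trophoblast RNA in these shares was not tested. It was taken from counts per kilobase of merged exons, so that genes of different length could be compared. Plin2 made up 85.95% and 86.29% of the sum of the 4 perilipins in fasted and 75.7% and 75.9% in non-fasted livers. Plin3 made up 2.77% and 2.60% in fasted and 18.85% and 18.62% in non-fasted livers, so that it came after Plin2 in non-fasted livers and after both Plin2 and Plin5 in fasted livers. Plin5 made up 9.34% and 9.14% in fasted against 4.99% and 5.06% in non-fasted livers. Plin4 stayed the scarcest, at 1.94% and 1.97% in fasted against 0.425% and 0.456% in non-fasted livers. For each of the 4 genes the gap between group means was larger than the spread within groups, with means of 86.1% ± 0.238 and 75.8% ± 0.0915 (SD, n = 2 per group) for Plin2. No test of these shares was run, and an exact two-sided permutation test of 2 against 2 libraries could not give a p below 0.333.

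**Figure D3:**
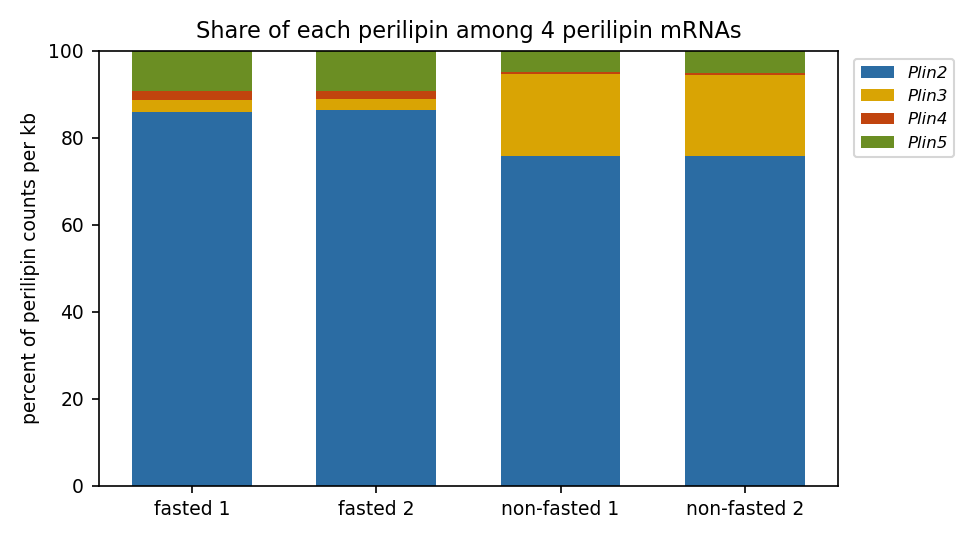
Percent of the summed counts per kilobase of 4 perilipins that each one took, in each of the 4 libraries. Plin3 (yellow) fills 18.62% to 18.85% of the bars of the non-fasted and 2.60% to 2.77% of those of the fasted libraries. The part of trophoblast RNA in the non-fasted bars was not tested.

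The promoters of the 4 perilipins are shown because these genes moved in different directions, and their upstream sequences can be set side by side. Each is the 250 bases before the gene's start in RefSeq, on the minus strand of GRCm38.p6, another build than the GRCm39 named for the counts. All 10 genes matched an entry. The stretches are chr4:86670060-86670309 for Plin2, chr17:56290512-56290761 for Plin3, chr17:56109783-56110032 for Plin4 and chr17:56117549-56117798 for Plin5. Capitals mark the letters AGGTCA (the half-site that nuclear receptors bind), CCAAT (the CCAAT box) and GGGCGG (the GC box) on either strand.
Plin2: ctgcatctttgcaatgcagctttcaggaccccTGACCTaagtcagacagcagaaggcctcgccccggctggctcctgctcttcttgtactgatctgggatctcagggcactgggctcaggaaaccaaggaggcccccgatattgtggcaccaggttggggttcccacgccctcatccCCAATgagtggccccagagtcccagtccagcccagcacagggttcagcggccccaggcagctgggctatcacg
Plin3: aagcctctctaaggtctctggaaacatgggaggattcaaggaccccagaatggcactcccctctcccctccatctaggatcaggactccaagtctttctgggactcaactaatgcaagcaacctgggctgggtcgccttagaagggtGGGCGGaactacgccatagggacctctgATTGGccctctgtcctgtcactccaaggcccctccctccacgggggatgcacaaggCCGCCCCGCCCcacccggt
Plin4: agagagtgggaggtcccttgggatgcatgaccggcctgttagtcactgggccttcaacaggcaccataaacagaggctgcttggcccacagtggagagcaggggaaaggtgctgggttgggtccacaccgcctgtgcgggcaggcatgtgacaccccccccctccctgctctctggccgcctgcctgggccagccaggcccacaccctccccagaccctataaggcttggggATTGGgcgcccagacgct
Plin5: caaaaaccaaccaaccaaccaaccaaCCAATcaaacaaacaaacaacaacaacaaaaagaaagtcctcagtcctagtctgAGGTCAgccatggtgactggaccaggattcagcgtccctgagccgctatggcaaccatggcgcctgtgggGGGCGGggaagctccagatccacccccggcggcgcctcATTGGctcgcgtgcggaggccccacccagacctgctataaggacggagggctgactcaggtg

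All 4 perilipin windows held CCAAT on one strand or the other, as did 34.5% of the 27025 windows of all genes, while none of the other 6 lipid droplet genes did. Counting from -1 at the base before the start, the box began at -73 in Plin2, at -75 in Plin3, at -18 in Plin4 and at -224 and -62 in Plin5. The half-site AGGTCA was present in Plin2, Plin5, Abhd5 and Hsd17b13, against 13.8% of all windows, that is in 3 genes that were higher on both scales and in 1, Abhd5, that was lower. Its direct repeat with any 1 base between was in none of the 10 and in 0.0370% of all windows. GGGCGG was in 6 of the 10, namely Plin3, Plin5, Cideb, G0s2, Pnpla2 and Abhd5, against 32.9%. The 10 windows were also richer in G and C, with a median of 60.8% against 52.0% over all windows. The part of this in the count of GGGCGG was not tested. TATAAA was in Cideb alone (3504 of the 27025 windows), and the E-box CACGTG (6.05%) and the cAMP response element TGACGTCA (1.62%) were in none. Both strands were searched, and AGGTCA can lie within the direct repeat. Plin4 and Plin5, which lie next to each other on chromosome 17, both rose, and Plin3, in the same region of that chromosome by the coordinates above, fell.

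Among the CIDE genes, Cidec rose on every scale and Cideb did not. Cidec (Entrez gene 14311), also called Fsp27, encodes a protein at droplet contact sites that moves lipid from small to large droplets. It had 206 and 150 normalized counts in fasted and 15.2 and 19.8 in non-fasted livers, without overlap. The log2 fold change was 3.34 (standard error 0.22, adjusted p = 1.2e-07 by edgeR), with the largest error of the 9 genes, from 105 and 76 raw counts in fasted and 30 and 39 in non-fasted libraries. By hepatocyte markers it was 1.52 (standard error 0.21, adjusted p = 3.5e-07).

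Cideb (Entrez gene 12684), the CIDE protein of normal hepatocytes, acts in the loading of lipid onto very low density lipoprotein. It had 2342 and 2130 normalized counts in fasted and 740 and 728 in non-fasted livers, without overlap. By median of ratios its log2 fold change was 1.61 (standard error 0.048, adjusted p = 1.5e-10 by edgeR). By hepatocyte markers it turned to -0.21 (standard error 0.044, adjusted p = 9.3e-05), at the lower edge of the markers' own range. Cideb therefore moved about as much as the hepatocyte markers did. The gene overlaps Nop9, with 260 and 294 raw counts in fasted and 675 and 673 in non-fasted libraries, and Ltb4r2, with 5 and 8 against 12 and 6. Within a library there were 0.0881 and 0.0704 counts of Cidec per count of Cideb in fasted livers and 0.0206 and 0.0272 in non-fasted livers, a 3.32-fold difference of the group means on the log scale.

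The genes of the lipase complex did not move together. Pnpla2 (Entrez gene 66853), the lipase that takes the first fatty acid from triglyceride, had 1678 and 1603 normalized counts in fasted and 681 and 660 in non-fasted livers. Its log2 fold change was 1.29 (standard error 0.044, adjusted p = 5.2e-10 by edgeR) under median of ratios and -0.53 (standard error 0.045, adjusted p = 9.0e-11) by hepatocyte markers. Both groups were apart on both scales, in opposite order, and on the latter scale Pnpla2 lay below the range of the hepatocyte markers.

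Abhd5 (Entrez gene 67469), also called CGI-58, had 921 and 941 normalized counts in fasted and 1745 and 1754 in non-fasted livers. It was lower in both fasted libraries, with a log2 fold change at -0.91 (standard error 0.039, adjusted p = 3.8e-09 by edgeR). By hepatocyte markers it was at -2.73 (standard error 0.039, adjusted p = 6.5e-26), the lowest of the 9 genes. There were 0.549 and 0.587 counts of Abhd5 per count of Pnpla2 in fasted and 2.56 and 2.66 in non-fasted libraries, a 4.60-fold gap that no scaling alters. Like Plin3, Abhd5 went the way of the trophoblast markers, which had 6 and 3 summed counts in the fasted libraries, and their part was not tested.

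G0s2 (Entrez gene 14373), the inhibitor of PNPLA2, was close to the limit of detection. It had 3 and 4 raw counts in the fasted libraries and none in the non-fasted libraries, although these were deeper. The 7 fasted counts have an exact two-sided Poisson 95% interval of 2.81 to 14.4. For the count of 0 over the non-fasted group a floor of 3 was set, about the one-sided 95% limit. Against that floor G0s2 was higher in fasted livers by at least 9.04-fold under median of ratios, at least 6.37-fold by total counts and at least 2.56-fold by hepatocyte markers. These bounds take the 7 counts as exact. From the low end of their interval they fall to 3.63-fold, 2.56-fold and 1.03-fold. A two-sided limit for the non-fasted group would lie above 3 and lower all of them further. The bound of 1.03-fold therefore does not show a difference by hepatocyte markers. Intervals and floors cover counting error only. Per count of Pnpla2 there were 0.00351 and 0.00492 counts of G0s2 in the fasted libraries, and per kilobase G0s2 had 3.44 and 4.59 counts there, against 283 and 269 for Pnpla2.

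Hsd17b13 (Entrez gene 243168) encodes a liver enzyme bound to droplets, from the family of hydroxysteroid dehydrogenases. It had 14091 and 13525 normalized counts in fasted and 2286 and 2310 in non-fasted livers. The log2 fold change was 2.59 (standard error 0.023, adjusted p = 7.5e-15 by edgeR), with no overlap, and 0.77 (standard error 0.023, adjusted p = 9.0e-20) by hepatocyte markers. Its neighbour and paralog Hsd17b11, also a droplet protein, had log2 fold changes of 1.75 and -0.074 on the same scales. Each count of Hsd17b11 came with 2.41 and 2.19 counts of Hsd17b13 in fasted and 1.29 and 1.28 in non-fasted libraries, so the paralogs moved by different amounts.

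**Figure D4:**
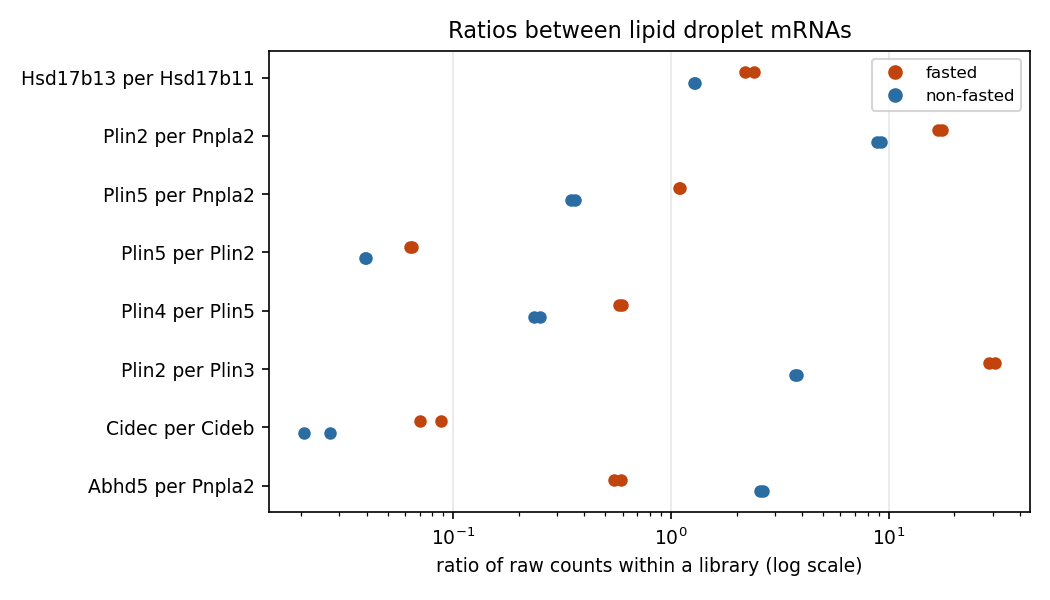
Ratio of the raw counts of 2 genes within each library, on a log scale, for 8 pairs of lipid droplet genes. Red points are the fasted and blue points the non-fasted libraries. The groups are apart in all 8 pairs, and only Abhd5 per Pnpla2 is lower in the fasted libraries, at 0.549 and 0.587 against 2.56 and 2.66. How often pairs of other genes are apart was not counted. By median of ratios 37.3% of all genes were called higher and 45.3% lower, so groups that lie apart are not particular to these pairs.

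Other ratios within a library placed the perilipins against each other and against the lipase. There were 28.8 and 30.8 counts of Plin2 per count of Plin3 in fasted and 3.73 and 3.78 in non-fasted libraries, a 7.93-fold difference. Plin5 had 1.09 and 1.10 counts per count of Pnpla2 in fasted and 0.346 and 0.364 in non-fasted libraries, and Plin2 had 16.8 and 17.5 against 8.82 and 9.18. Both coat genes thus gained on the lipase, by 3.08-fold and 1.91-fold. Such ratios also depend on the mix of tissues in a library, and the part of trophoblast RNA in them was not tested. Plin5 also gained on Plin2, from 0.0392 and 0.0397 to 0.0645 and 0.0630, and Plin4 on Plin5, from 0.235 and 0.249 to 0.575 and 0.596.

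Per kilobase, Plin2 and Hsd17b13 were the most abundant of the 10 RNAs in all 4 libraries. Plin2 had 4093 and 4042 raw counts per kilobase in fasted and 3365 and 3396 in non-fasted libraries, and Hsd17b13 had 3325 and 3180 against 2086 and 2107. Cideb came next in every library. Below it the order differed between groups. In fasted livers it was Plin5 (445 and 428), Pnpla2 (283 and 269), Plin3 (132 and 122), Plin4 (92.4 and 92.3), Abhd5 (78.7 and 80.1), Cidec (56.6 and 41.0) and G0s2, and no neighbours in it overlapped. In non-fasted livers it was Plin3 (838 and 834), Abhd5 (577 and 579), Pnpla2 (444 and 430), Plin5 (222 and 227), and then Plin4 (18.9 and 20.4) and Cidec (16.2 and 21.01), which overlapped, before G0s2 at 0. Plin3 and Abhd5 thus ranked behind Plin5 and Pnpla2 in the fasted libraries and ahead of them in the non-fasted ones. These ranks also depend on the mix of tissues in a library, and the part of trophoblast RNA in them was not tested.

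The other genes of the droplet pathway were taken as 4 lists of 47 genes, of which 45 were tested. By median of ratios 30 of them were higher and 13 lower in fasted livers (37.3% and 45.3% of all genes), and by hepatocyte markers 8 were higher and 34 lower (4.23% and 91.2% of all genes). Their median log2 fold change was 0.84 and -0.99 on these scales, against 2.22 and 0.40 for the 9 lipid droplet genes tested and -0.13 and -1.95 for all genes. For the 14 hepatocyte markers it was 1.75 and -0.075. The 8 that were higher on both scales were Fitm1, Fitm2, Soat2, Mgll, Ces1d, Ppara, Ppargc1a and Creb3l3. By hepatocyte markers, Fitm2 (0.27), Soat2 (0.30) and Ppargc1a (0.36) lay inside those markers' own range of -0.21 to 0.45. Ces1d (0.46) lay just above that range.

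In droplet assembly, 8 of 10 genes tested were higher and 2, Ldaf1 and Acsl3, were lower by median of ratios, against 6 and 4 with total counts and 2 and 8 by hepatocyte markers. Of all genes, 37.3% were higher and 45.3% lower by median of ratios, 23.0% and 62.9% by total counts, and 4.23% and 91.2% by hepatocyte markers. The 2 higher on all 3 scales were the FIT proteins Fitm1 and Fitm2, which help triglyceride bud into new droplets. Fitm1 had 486 and 480 raw counts in fasted and 359 and 334 in non-fasted libraries, with log2 fold changes of 2.43 (median of ratios) and 0.61 (hepatocyte markers). Fitm2 was at 2.09 and 0.27. Ldaf1, listed as Tmem159 and known as the partner of seipin at sites where droplets form, had 19 and 20 raw counts in fasted and 534 and 538 in non-fasted libraries, at -2.82 and -4.64. Acsl3, an acyl-CoA synthetase on growing droplets, was at -1.29 and -3.11.

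In triglyceride and sterol ester synthesis, 10 of 15 genes were higher and 5 lower by median of ratios, where 37.3% and 45.3% of all genes were. By hepatocyte markers 1 was higher and 13 lower, near the 4.23% and 91.2% of all genes. The sterol acyltransferases parted. Soat2, the form of hepatocytes and intestine, had 470 and 434 raw counts in fasted and 420 and 383 in non-fasted libraries, at 2.12 and 0.30 on the 2 scales, while Soat1, the form of most other tissues, had 41 and 44 against 4015 and 4178, at -4.64 and -6.45. The other 4 that were lower on both scales were the acyltransferases Agpat1 (-2.21 and -4.03), Gpat3 (-1.67 and -3.49) and Mogat2 (-1.80 and -3.59) and the phosphatidate phosphatase Lpin3 (-2.04 and -3.86). Mogat2 had few counts, at 4 and 2 in fasted and 43 and 39 in non-fasted libraries. Dgat2, which adds the last fatty acid and had the highest mean count of the list, was at 1.39 and -0.43.

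Among 11 other lipases and their regulators, 6 were higher, 4 lower and 1, Ddhd2, not past the test at -0.023 by median of ratios, and 2 were higher and 8 lower by hepatocyte markers. The shares over all genes were 37.3% higher and 45.3% lower on the former scale, and 4.23% and 91.2% on the latter. Mgll, which ends lipolysis by splitting monoacylglycerol, had 3049 and 3007 raw counts in fasted and 2056 and 2057 in non-fasted libraries, with log2 fold changes of 2.51 and 0.69 on the 2 scales. Ces1d, a carboxylesterase of liver whose close paralogs may take some of its reads, was at 2.28 and 0.46. Hilpda, an inhibitor of PNPLA2 that hypoxia induces, had 33 and 45 raw counts in fasted and 2649 and 2677 in non-fasted libraries, at -4.14 and -5.96. Pnpla3, the closest paralog of Pnpla2, had 3 and 5 counts against 80 and 82, at -2.37 and -4.17, and Abhd6 and Pnpla6 were at -0.21 and -0.39 by median of ratios. Of these inhibitors of PNPLA2, Hilpda had most of its counts in the non-fasted libraries. G0s2 had its 7 counts in the fasted ones, too few to show a difference by hepatocyte markers.

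Among 9 transcription regulators of droplet genes, 6 were higher, 2 lower and 1, Tfeb, not past the test at -0.092 by median of ratios, and 3 were higher and 5 lower by hepatocyte markers. Over all genes 37.3% were higher and 45.3% lower on the former scale, and 4.23% and 91.2% on the latter. Ppara, the gene of PPARα, had 5070 and 5134 raw counts in fasted and 2764 and 2661 in non-fasted libraries, at 2.87 (standard error 0.024, adjusted p = 5.2e-15 by edgeR) and 1.04 on the 2 scales. Creb3l3, a liver factor that acts with PPARα in fasting, was at 2.60 and 0.78, and the coactivator gene Ppargc1a was at 2.18 and 0.36. Rxra, the partner of PPARα with the highest mean count of the list, and Cebpa were higher by median of ratios (1.66 and 1.83) and near 0 by hepatocyte markers (-0.16 and 0.013). The 2 that were lower were Pparg (-1.39 and -3.21), the fat cell relative of Ppara, and Srebf1 (-0.44 and -2.26), which drives fat synthesis after meals. The trophoblast markers were lower in the same libraries as the genes named here as lower, at 6 and 3 summed counts, and their part was not tested.

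**Figure D5:**
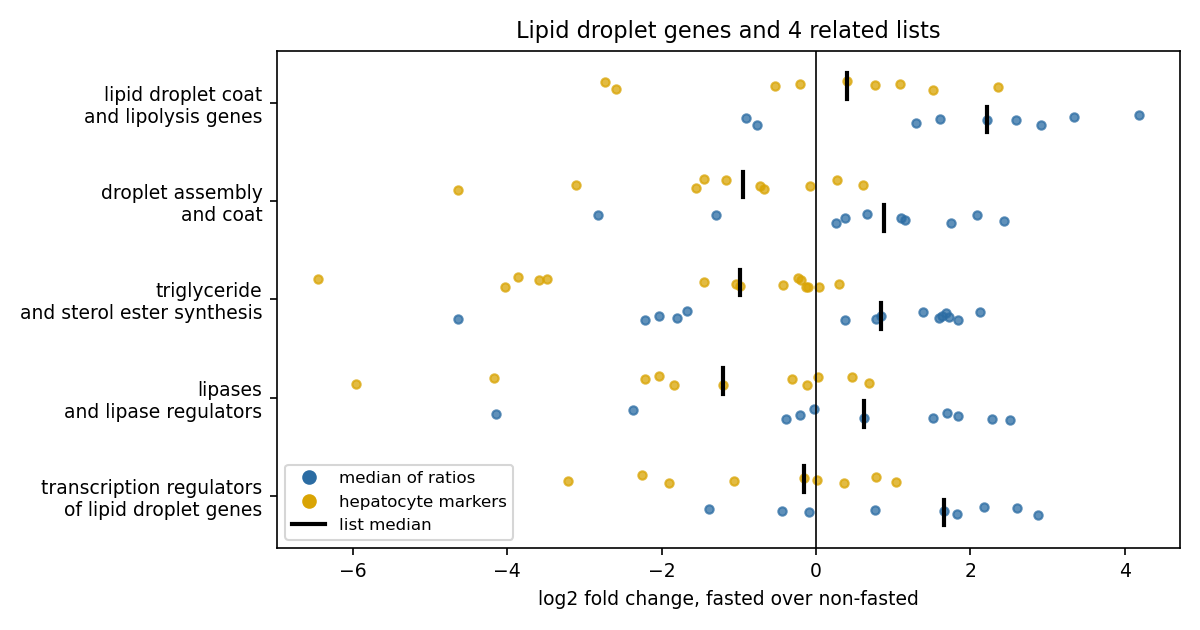
Difference between fasted and non-fasted livers, as log2 fold change, of the 9 lipid droplet genes tested and of the tested genes of 4 related lists, by median of ratios (blue) and by hepatocyte markers (yellow), with a point for each gene and a black bar at each list median. The lipid droplet genes have medians of 2.22 and 0.40, above 0 on both scales, whereas each of the 4 related lists has a median above 0 by median of ratios and below 0 by hepatocyte markers. The medians of the lipid droplet genes lie inside the ranges of the 14 hepatocyte markers, 1.61 to 2.27 and -0.21 to 0.45.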

How the data were processed

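Bulk RNA of mouse liver had been sequenced in 2 fasted and 2 non-fasted libraries. The deposited files hold raw counts per Entrez gene. The authors' processing notes name Trimmomatic, STAR, featureCounts, FastQC, MultiQC, DESeq2 1.32.0 and GRCm39. How strand and overlapping genes were handled was not given in the sources used here, so overlapping genes are uncertain. Names came from a RefSeq table of GRCm38.p6, which lacked 1904 identifiers. Exon lengths came from GENCODE M21.

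Genes were filtered by filterByExpr (edgeR 4.0.16, R 4.3.3), scaled by median of ratios over the 15470 genes kept, and tested by the two-sided quasi-likelihood test with Benjamini-Hochberg adjustment. Dispersions were not allowed under 0.00011, because below about that value edgeR approximates the deviance poorly for abundant genes. Standard errors are the log2 fold change over the square root of F. Normalized counts use the same factors. The test was also tested on simulated data.

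The members, lists and hepatocyte-marker scaling were chosen with earlier results of these data known. Named genes are the 10 members and, per list, up to 4 called genes with the largest change, the one with the highest mean count, the untested and the members' paralogs. Any other gene of these lists was picked once its values were seen. Since nothing says that the libraries of a group came from separate mice, the p-values cover the spread among libraries alone, and that spread may be technical. The squared deviation per gene between the 2 libraries, 1 for counting error alone, was 1.11 in the fasted and 1.13 in the non-fasted group (chi-square p = 1.7e-18 and 2.4e-30). This excess over counting error is small, and the common coefficient of variation from edgeR was 0.0099. Alternatives were other scalings and filters, DESeq2 1.42.0, limma-voom 3.58.1, fixed coefficients of variation, a block and leaving out libraries. Figures used matplotlib 3.10.9.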

Additional observations from a re-analysis of the deposited data

How the results depend on the processing

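For the 9 lipid droplet genes tested, 145 of 152 log2 fold changes under the alternatives kept their direction and their side of the threshold, 5 no longer passed and 2 turned. The 2 that turned were those of Cideb and Pnpla2 under hepatocyte-marker scaling, at -0.21 and -0.53. That scaling also moved the count of lower lipid droplet genes from 2 to 4, and the counts over the related lists from 30 higher and 13 lower to 8 and 34. Over all genes it moved the split from 5778 higher and 7003 lower to 655 and 14104, and total counts moved it to 3563 and 9735. With a coefficient of variation fixed at 0.4, the falls of Plin3 and Abhd5 and the rise of Pnpla2 were lost (adjusted p = 0.344, 0.240 and 0.0752, the largest of their alternatives, which began at 5.1e-58, 1.1e-83 and 1.1e-148), so 0 lipid droplet genes were lower, and the related lists had 19 higher and 7 lower. A fold of at least 2 left 0 lower lipid droplet genes as well, since Plin3 and Abhd5 were at -0.77 and -0.91. With no filter, G0s2 was tested as well (log2 fold change 6.11, adjusted p = 0.0136 by edgeR, the 1 alternative that tested it), and with a mean of at least 10 CPM Cidec was not tested.

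Leaving out each library gave 7 higher and 2 lower lipid droplet genes every time. The replicate numbers of the labels name no shared animal or batch, and the deviations of same-numbered libraries had a correlation of -0.0044 over 11348 genes. With the replicate block the counts were 7 higher and 2 lower lipid droplet genes, and 5746 higher and 6929 lower genes over all. Depth limits G0s2, at 7 counts in all, and Cidec, at 30 to 105 per library.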
